A study of Mus musculus with 18 samples.

Results

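The genes followed here code for splicing and RNA-binding factors, the nuclear proteins that choose splice sites, remove introns and package the transcript. They are 53 named mouse genes, and every probe set annotated to 1 of their symbols alone was used. This gave 210 probe sets of the 45037 tested on each array, and 53 of the 18193 genes with a probe set of their own. A probe set is a group of short oligonucleotides that reads 1 stretch of a transcript. 45 of the 53 genes had 2 or more probe sets, 8 had 1, and Rbm39 had the most with 12. No probe set was left out for low signal. 10 of the genes (Mbnl1, Srsf3, Srsf11, Rbm25, Psip1, Sf3b2, Wbp11, Rbm5, Syncrip and Fyttd1) were named in the text or supplementary tables of the study, from these same arrays. Their changes are therefore not independent evidence of a direction. The other 43 genes hold 164 of the 210 probe sets. They were read on the same arrays, so their changes are not independent of the study either.

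As background, SR proteins bind exons and recruit the splicing machinery, and kinases of the CLK family phosphorylate them and release them from nuclear speckles. hnRNP proteins coat new transcripts and often oppose exon use, while the core spliceosome recognises the splice sites and the branch point. In heart muscle, MBNL, CELF and RBFOX proteins are known for switching exons of contractile and calcium-handling genes between fetal and adult forms.

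The study compared heart growth during voluntary running with heart growth during pregnancy in female C57Bl/6 mice of 3 to 4 months. RNA of the left ventricle was hybridised to 18 Affymetrix Mouse Genome 430 2.0 arrays, 3 in each of 6 groups. The groups were mice that ran for 7 days (7EX) or 21 days (21EX), mice in mid-pregnancy at day 11 (MP) or late pregnancy at day 18 to 19 (LP), mice within 12 h of giving birth (0PP), and virgin sedentary mice in diestrus (NP/Sed). The labels name no engineered allele or drug treatment, and all mice inhaled isoflurane before they were killed. Every array carried a pool made in equal parts from the RNA of 2 to 3 hearts. The p-values below therefore measure the spread between pools and not between single mice. In RNA of whole tissue, fewer cells of a type and less RNA per cell cannot be told apart. Values are log2 signals, and a difference of 1 is a 2-fold change. A probe set is said to have risen or fallen only where limma gave an adjusted p under 0.05 over all 45037 probe sets. The signal of a probe set also depends on its oligonucleotides, so "bright" and "dim" rank the probe sets of a gene by signal and give no order of transcript amounts.

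The arrays had similar medians, 4.93 to 5.02. The 3' minus 5' signal of beta-actin, a measure of RNA integrity, was 1.05 to 1.09 in 7EX, 1.17 to 1.22 in 21EX, 1.32 to 1.35 in MP, 1.17 to 1.28 in LP and 1.28 to 1.32 in 0PP, against 1.11 to 1.36 in NP/Sed. The tissue carried its defining markers, since all 10 cardiomyocyte genes were bright (the dimmest, Ryr2, averaged 12.17) and their summed log2 level was 17.44 to 17.49 in every group.

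Few of these probe sets passed the test, and most that did fell after 21 days of running. In 21EX against NP/Sed, 15 of the 210 (7.14%) fell and 1 (0.476%) rose, against a background of 1.37% lower and 1.38% higher among all probe sets. The 15 belonged to 14 genes, and 9 of them came from genes that the study does not name. In 7EX none passed (background 0.251% lower and 0.409% higher), with 47 lower and 3 higher at an unadjusted p under 0.05 and a smallest adjusted p of 0.0601. In MP 2 fell and 0 rose (background 0.548% lower and 0.615% higher). In LP 1 fell and 1 rose (background 0.484% lower and 1.19% higher), and in 0PP 2 fell and 0 rose (background 0.517% lower and 1.46% higher). At an unadjusted p under 0.05 by limma, 59 were lower and 11 higher in 21EX, and 69 were lower and 7 higher in MP. LP had 22 lower and 14 higher, and 0PP had 23 lower and 16 higher. The share of all probe sets at that unadjusted threshold was not counted, so these counts have no background beside them.

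These 5 comparisons share the 3 NP/Sed arrays. The median log2 difference of the 210 probe sets was -0.09 in 7EX, -0.07 in 21EX, -0.12 in MP, -0.06 in LP and -0.03 in 0PP, while the median over all probe sets lay between -0.02 and 0.01. All 3 arrays lay below all 3 NP/Sed arrays at 53 (25.2%) of the 210 in 7EX (background 8.48%), 54 (25.7%) in 21EX (10.1%), 60 (28.6%) in MP (8.03%), 28 (13.3%) in LP (8.39%) and 33 (15.7%) in 0PP (10.6%). Between the groups themselves, 0 probe sets passed in 21EX against 7EX (background 0.00222% lower and 0% higher), with 5 lower and 6 higher at an unadjusted p under 0.05. 0 passed in 0PP against LP (0.318% lower and 0.566% higher), with 6 lower and 16 higher at an unadjusted p under 0.05. In LP against MP, 5 rose and 0 fell (0.573% lower and 0.83% higher), with 5 lower and 38 higher at an unadjusted p under 0.05 by limma. The share of all probe sets at that unadjusted threshold was not counted for these between-group comparisons either.

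**Figure D1:**
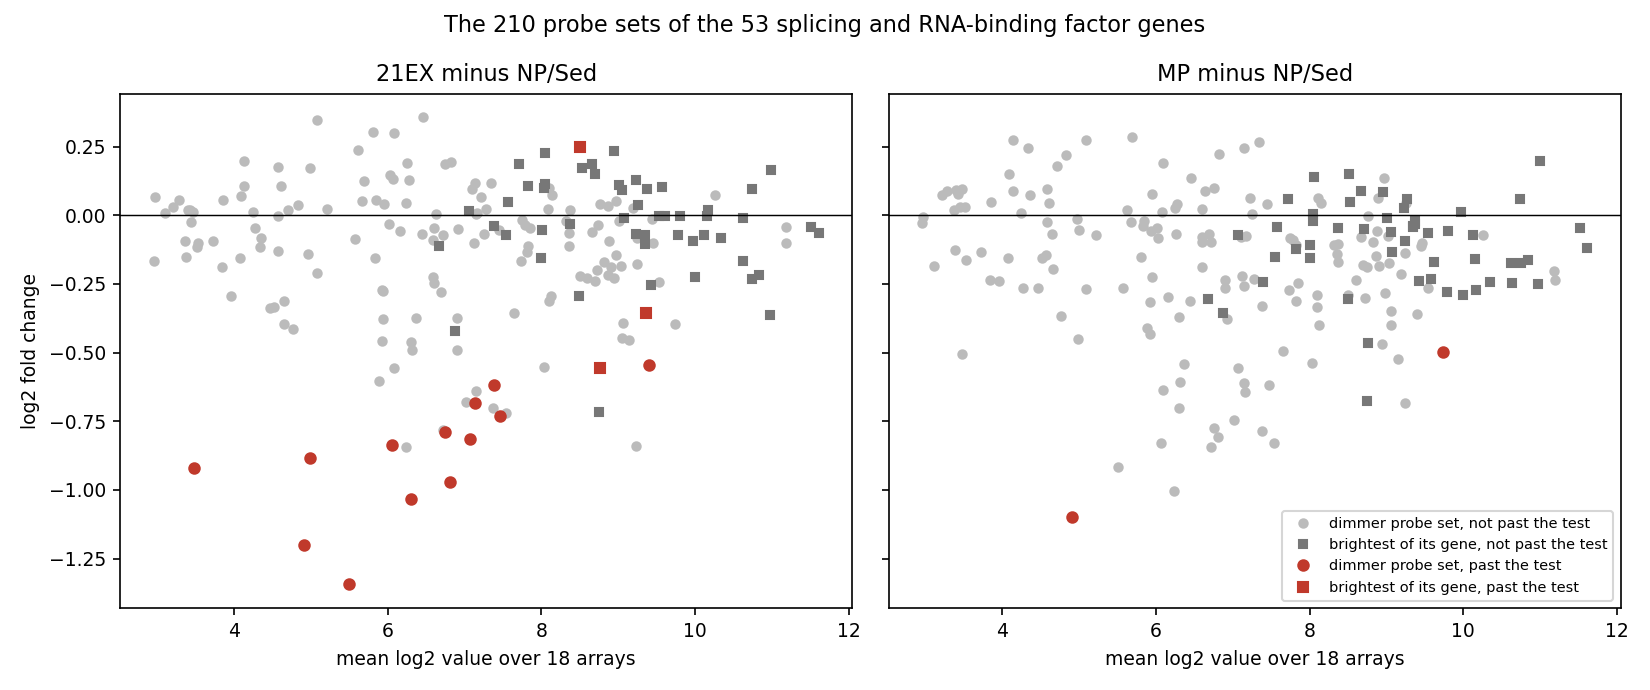
Log2 difference from NP/Sed (y) against the mean log2 signal over 18 arrays (x) for the 210 probe sets of the 53 genes, in 21EX and in MP, with probe sets past the test in colour. The 15 that fell in 21EX lie between 3.48 and 9.40 on the x axis, and 2 fell in MP.

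Mbnl1, the muscleblind protein that binds CUG-rich RNA and sets adult splice patterns in heart, fell at its dimmest probe set. Probe set 1440315_at read 4.30, 4.82 and 4.88 in 7EX, 4.63, 4.11 and 4.64 in 21EX, 5.06, 4.19 and 4.44 in MP, 4.94, 5.51 and 4.997 in LP, 5.37, 5.15 and 4.33 in 0PP, against 5.81, 5.74 and 5.44 in NP/Sed. All arrays of 7EX, 21EX, MP and 0PP lay below all 3 of NP/Sed, and LP overlapped NP/Sed. The log2 difference was -1.20 ± 0.252 (SE, n = 3 arrays each, adjusted p = 0.0211) in 21EX, a 2.3-fold lower signal, and -1.10 ± 0.252 in MP (adjusted p = 0.039), 2.14-fold lower. In 7EX it was -0.995 (adjusted p = 0.0765), in LP -0.51 and in 0PP -0.71. The brightest Mbnl1 probe set, 1416904_at, read 10.45, 10.76 and 10.79 in 7EX, 10.82, 10.50 and 10.55 in 21EX, 10.75, 10.71 and 10.59 in MP, 10.76, 10.67 and 10.94 in LP, 10.86, 10.89 and 10.81 in 0PP, against 10.94, 10.85 and 10.78 in NP/Sed. It differed from NP/Sed by -0.23 in 21EX (adjusted p = 0.22) and by -0.17 in MP (adjusted p = 0.485). The dim minus bright difference passed its own test in 21EX, given below, and was -0.93 in MP without passing (adjusted p = 0.0626).

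The other tissue regulators, Rbfox2, Celf1 and Celf2, had 16 probe sets, and 1 of them passed the test. Rbfox2, which binds UGCAUG elements beside alternative exons, fell in 0PP at probe set 1434938_at. It read 6.10, 5.89 and 5.96 in 7EX, 5.81, 5.79 and 5.81 in 21EX, 5.83, 5.85 and 6.08 in MP, 5.76, 5.75 and 5.79 in LP, 5.53, 5.53 and 5.72 in 0PP, against 5.88, 6.08 and 5.92 in NP/Sed. The 21EX, LP and 0PP arrays lay below NP/Sed without overlap, and the difference in 0PP was -0.37 ± 0.0844 (SE, adjusted p = 0.034). Its brightest probe set, 1418245_a_at, read 6.65, 7.03 and 6.92 in 7EX, 6.88, 6.37 and 6.69 in 21EX, 7.07, 6.55 and 6.51 in MP, 6.85, 6.70 and 7.04 in LP, 7.11, 7.27 and 6.99 in 0PP, against 7.20, 7.06 and 6.95 in NP/Sed, and the 0PP and NP/Sed arrays overlapped there. None of the 12 probe sets of Celf1 and Celf2, which bind GU-rich RNA and act against MBNL at several exons, passed in any comparison.

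SR proteins and SR-like regulators made up 15 genes and 64 probe sets. In 21EX 6 probe sets of 6 genes fell (Srsf3, Srsf11, Srrm1, Srrm2, Son and Pnn) and 1 rose (Srsf4). In LP 1 fell, and in 7EX, MP and 0PP 0 passed. Srsf3, the smallest SR protein, which also couples splicing to mRNA export, had 1 probe set that fell in 21EX and another that fell in LP. Probe set 1438215_at, added here after its values were seen, read 6.60, 6.82 and 6.74 in 7EX, 6.60, 6.30 and 6.49 in 21EX, 7.13, 6.23 and 6.51 in MP, 6.74, 7.29 and 6.86 in LP, 6.94, 6.77 and 6.24 in 0PP, against 7.69, 7.40 and 7.21 in NP/Sed. Its 7EX, 21EX, MP and 0PP arrays all lay below NP/Sed, and it fell by 0.97 on the log2 scale in 21EX, 1.96-fold (SE 0.203, adjusted p = 0.0211). In LP it differed by -0.47 without passing (adjusted p = 0.309). The brightest probe set, 1416150_a_at, read 10.22, 10.26 and 10.37 in 7EX, 10.33, 10.28 and 10.26 in 21EX, 9.83, 9.998 and 10.18 in MP, 10.04, 9.87 and 9.85 in LP, 10.17, 10.24 and 10.24 in 0PP, against 10.31, 10.25 and 10.26 in NP/Sed. There the 21EX and NP/Sed arrays overlapped (difference 0.02, adjusted p = 0.942), while the MP, LP and 0PP arrays lay below NP/Sed and the probe set fell in LP by 0.35 ± 0.0834 (adjusted p = 0.0365). In MP, where it did not pass, the difference was -0.27 (adjusted p = 0.119).

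Srsf11, an SR-related protein that works with the U2 machinery, fell in 21EX at its dimmest probe set. Probe set 1439095_at read 4.70, 5.03 and 4.68 in 7EX, 4.56, 4.68 and 4.29 in 21EX, 5.36, 4.62 and 4.85 in MP, 5.01, 5.31 and 5.10 in LP, 5.51, 4.98 and 4.88 in 0PP, against 5.29, 5.67 and 5.23 in NP/Sed. The difference in 21EX was -0.89 ± 0.183 (SE, adjusted p = 0.0205), and the 7EX and 21EX arrays lay below NP/Sed without overlap. Its brightest probe set, 1452371_at, read 9.66, 9.68 and 9.68 in 7EX, 9.70, 9.64 and 9.52 in 21EX, 9.44, 9.42 and 9.48 in MP, 9.63, 9.64 and 9.68 in LP, 9.79, 9.60 and 9.65 in 0PP, against 9.77, 9.49 and 9.60 in NP/Sed, and 21EX and NP/Sed did overlap there (difference -0.0022).

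Srrm1, a coactivator that bridges SR proteins and the snRNPs, was 1 of 2 genes whose brightest probe set fell in 21EX, the other being Rbm39. Srrm1 probe set 1420935_a_at read 8.58, 8.73 and 8.73 in 7EX, 8.69, 8.33 and 8.68 in 21EX, 8.88, 8.42 and 8.68 in MP, 8.81, 9.06 and 8.76 in LP, 8.78, 8.68 and 8.54 in 0PP, against 8.95, 9.27 and 9.16 in NP/Sed. The 7EX, 21EX, MP and 0PP arrays lay below NP/Sed, and the difference in 21EX was -0.56 ± 0.125 (SE, adjusted p = 0.0267). Its second probe set by signal, 1454689_at, read 8.78, 8.84 and 8.58 in 21EX, against 8.91, 8.70 and 8.71 in NP/Sed, and those groups overlapped (difference -0.04).

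Srsf4, an SR protein with 1 probe set, was the only one of the 53 genes that rose in 21EX. Probe set 1448778_at read 8.49, 8.45 and 8.49 in 7EX, 8.56, 8.63 and 8.65 in 21EX, 8.46, 8.55 and 8.53 in MP, 8.49, 8.53 and 8.59 in LP, 8.51, 8.57 and 8.61 in 0PP, against 8.31, 8.42 and 8.36 in NP/Sed. The arrays of all 5 groups lay above NP/Sed. The 21EX difference was 0.25 ± 0.0646 (SE, adjusted p = 0.0455), a 1.19-fold change, and the other 4 did not pass. The remaining SR-like genes that fell in 21EX, named after their values were seen, were the speckle proteins Pnn, Son and Srrm2. Pnn 1423325_at read 6.25, 5.35 and 5.93 in 21EX, against 6.87, 6.84 and 6.92 in NP/Sed, a difference of -1.03 (adjusted p = 0.0430). Son 1420951_a_at read 5.93, 5.94 and 5.57 in 21EX, against 7.10, 6.36 and 6.48 in NP/Sed, a difference of -0.84 (adjusted p = 0.0364). Srrm2 1437638_at read 6.69, 5.99 and 6.73 in 21EX, against 7.12, 7.37 and 7.28 in NP/Sed, a difference of -0.79 (adjusted p = 0.0333). In each of these 3 the 21EX arrays lay below NP/Sed without overlap. The brightest probe sets of Pnn, Son and Srrm2 differed by -0.16, -0.17 and -0.36 in 21EX, without passing. Srsf1, Srsf2, Srsf5, Srsf6, Srsf10, Tra2a, Tra2b and Acin1 had no probe set past the test in any of the 8 comparisons.

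Srsf3, Mbnl1 and Luc7l2 were each called in both a running and a pregnant group, Srsf3 and Luc7l2 at different probe sets. The promoter of Srsf3 is shown here as an example and that of Luc7l2 below, while that of Mbnl1 is not shown. The 250 bases before the first RefSeq start of Srsf3 lie at GRCm38.p6 chr17:29032410-29032659 on the plus strand. They hold 1 CCAAT box, read here as ATTGG and printed in capitals.
Srsf3: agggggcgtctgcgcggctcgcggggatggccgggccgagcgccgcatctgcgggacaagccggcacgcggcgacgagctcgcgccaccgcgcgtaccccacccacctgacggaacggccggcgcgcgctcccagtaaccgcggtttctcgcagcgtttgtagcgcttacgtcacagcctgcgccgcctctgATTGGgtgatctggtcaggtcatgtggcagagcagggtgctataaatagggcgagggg

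hnRNP proteins made up 11 genes and 37 probe sets. 1 fell in 21EX, and 1 rose in LP. Hnrnpc, which binds uridine tracts of new transcripts, rose in LP at probe set 1418693_at, which read 8.04, 7.997 and 8.05 in 7EX, 8.15, 8.04 and 8.03 in 21EX, 8.06, 8.09 and 7.95 in MP, 8.42, 8.21 and 8.25 in LP, 8.23, 8.33 and 8.15 in 0PP, against 8.07, 7.97 and 7.88 in NP/Sed. The LP arrays lay above NP/Sed by 0.32 ± 0.0787 (SE, adjusted p = 0.0427), and the 0PP arrays also lay above without passing (0.26, adjusted p = 0.0838). At its brightest probe set, 1460240_a_at, the signals were 10.69, 10.74 and 10.77 in 7EX, 10.79, 10.78 and 10.80 in 21EX, 10.63, 10.80 and 10.84 in MP, 10.69, 10.62 and 10.72 in LP, 10.83, 10.73 and 10.85 in 0PP, against 10.69, 10.71 and 10.69 in NP/Sed, where LP overlapped NP/Sed and 21EX and 0PP lay above it. Hnrnpu, a nuclear scaffold protein, is a gene named after its values were seen. Its probe set 1434391_at read 7.33, 6.84 and 7.15 in 21EX, against 7.70, 7.78 and 7.69 in NP/Sed, and it fell in 21EX by 0.62 (adjusted p = 0.0365). The dimmest Hnrnpu probe set, 1434390_at, differed by -0.37 in 21EX and the brightest, 1423051_at, by -0.0014, without passing.

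Syncrip (hnRNP Q), which binds A-rich RNA, did not pass in any comparison. Probe set 1450743_s_at read 6.55, 7.02 and 7.18 in 7EX, 6.86, 6.35 and 6.79 in 21EX, 7.16, 6.15 and 6.49 in MP, 7.05, 7.35 and 7.47 in LP, 7.36, 7.43 and 7.10 in 0PP, against 7.58, 7.33 and 7.13 in NP/Sed, a difference of -0.68 in 21EX (adjusted p = 0.082) and of -0.75 in MP (adjusted p = 0.0912). The brightest, 1428546_at, read 7.95, 8.04 and 7.91 in 7EX, 8.19, 8.02 and 7.89 in 21EX, 7.998, 7.92 and 8.03 in MP, 8.02, 7.98 and 8.06 in LP, 7.96, 8.10 and 7.82 in 0PP, against 8.06, 8.26 and 7.95 in NP/Sed, with all groups overlapping NP/Sed. Hnrnpd, Hnrnph1, Hnrnpk, Hnrnpl, Hnrnpm, Hnrnpr and Ptbp1 had no probe set past the test.

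The core spliceosome made up 15 genes and 51 probe sets, with 3 that fell in 21EX, 1 in MP and 1 in 0PP. Luc7l2, whose human counterpart binds U1 snRNP and helps choose 5' splice sites, had 4 of its 8 probe sets past the test in some comparison. Its dimmest, 1458423_at, read 3.23, 3.51 and 3.48 in 7EX, 3.24, 2.82 and 3.23 in 21EX, 3.90, 3.17 and 3.46 in MP, 3.68, 3.84 and 3.53 in LP, 3.26, 3.38 and 2.84 in 0PP, against 3.92, 4.35 and 3.78 in NP/Sed. It fell in 21EX by 0.92 ± 0.181 (SE, adjusted p = 0.0182) and in 0PP by 0.86 ± 0.181 (adjusted p = 0.0243), and 7EX, 21EX and 0PP lay below NP/Sed without overlap. Probe set 1436766_at, the second brightest, read 9.41, 9.79 and 9.69 in 7EX, 9.80, 9.39 and 9.61 in 21EX, 9.51, 9.56 and 9.40 in MP, 9.82, 9.93 and 9.94 in LP, 9.73, 9.91 and 9.81 in 0PP, against 10.10, 10.03 and 9.85 in NP/Sed. Its 7EX, 21EX and MP arrays lay below NP/Sed, and it fell in MP by 0.50 ± 0.108 (adjusted p = 0.0315). At the brightest, 1437761_at, values were 9.82, 9.78 and 9.81 in 7EX, 9.94, 9.81 and 9.80 in 21EX, 9.74, 9.85 and 9.79 in MP, 9.86, 9.96 and 9.69 in LP, 9.62, 9.74 and 9.75 in 0PP, against 9.84, 9.89 and 9.82 in NP/Sed. The 21EX difference there was -0.0029, the MP difference -0.06 and the 0PP difference -0.15, and none passed.

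Wbp11, a spliceosome-associated protein, fell in 21EX at probe set 1430987_s_at, which read 6.71, 7.02 and 7.07 in 7EX, 6.81, 6.44 and 7.02 in 21EX, 7.47, 6.70 and 6.87 in MP, 6.95, 7.23 and 7.10 in LP, 7.14, 7.13 and 6.90 in 0PP, against 7.32, 7.74 and 7.65 in NP/Sed. The difference was -0.81 ± 0.174 (SE, adjusted p = 0.0224), and 7EX, 21EX, LP and 0PP all lay below NP/Sed. Its brightest, 1415799_at, read 8.98, 9.04 and 9.03 in 7EX, 9.13, 9.07 and 9.18 in 21EX, 8.91, 9.07 and 8.94 in MP, 9.10, 9.09 and 9.07 in LP, 9.05, 9.20 and 9.08 in 0PP, against 9.07, 8.98 and 9.05 in NP/Sed, and the 21EX mean was above NP/Sed by 0.09 (adjusted p = 0.501). The 2 probe sets differed in sign, though the bright one did not pass.

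Sf3b1 and Sf3b2 are subunits of the U2 snRNP complex that holds the branch point. Sf3b2 lay just outside the threshold in 21EX. Probe set 1429362_a_at read 8.85, 9.32 and 9.35 in 7EX, 9.20, 8.32 and 9.25 in 21EX, 9.61, 8.73 and 8.89 in MP, 9.19, 9.51 and 9.34 in LP, 9.26, 9.15 and 9.02 in 0PP, against 9.57, 9.92 and 9.80 in NP/Sed. The 7EX, 21EX, LP and 0PP arrays lay below NP/Sed, with a 21EX difference of -0.84 ± 0.224 (SE, adjusted p = 0.0501). The brightest Sf3b2 probe set, 1438637_x_at, read 9.20, 9.42 and 9.52 in 7EX, 9.28, 9.30 and 9.43 in 21EX, 9.28, 9.43 and 9.40 in MP, 9.37, 9.31 and 9.26 in LP, 9.19, 9.41 and 9.26 in 0PP, against 9.23, 9.55 and 9.45 in NP/Sed, with overlapping groups. Sf3b1, named after its values were seen, read 9.37, 8.75 and 9.19 in 21EX, against 9.71, 9.63 and 9.61 in NP/Sed at probe set 1418562_at, and fell in 21EX by 0.55 (adjusted p = 0.0313). In 21EX its brightest probe set, 1449138_at, differed by -0.09 and its dimmest, 1418561_at, by 0.36, and neither passed. That 0.36 was the highest difference of the 210 in 21EX, so the probe sets of Sf3b1 differed in sign. Sf3a1, Sf3b3, U2af1, U2af2, Snrnp70, Prpf3, Prpf8, Prpf19, Ddx46, Luc7l3 and Rbm17 had no probe set past the test.

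Rbm5, Rbm25 and Rbm39, with Psip1 and Fyttd1, made up 5 genes and 30 probe sets, of which 4 fell in 21EX and 0 passed elsewhere. Rbm25, which in human cells associates with U1 snRNP, had the lowest difference of the 210 in 21EX. Its dimmest probe set, 1425522_at, read 4.84, 5.48 and 5.54 in 7EX, 4.97, 4.51 and 5.14 in 21EX, 5.83, 5.04 and 5.05 in MP, 5.57, 5.96 and 5.61 in LP, 5.74, 5.999 and 5.08 in 0PP, against 6.28, 6.42 and 5.96 in NP/Sed. The 7EX, 21EX, MP and LP arrays lay below NP/Sed, and the 21EX difference was -1.34 ± 0.245 (SE, adjusted p = 0.0155), a 2.54-fold lower signal. In 7EX it was -0.93 (adjusted p = 0.0864) and in MP -0.92 (adjusted p = 0.0755). The brightest, 1425523_at, read 9.30, 9.45 and 9.52 in 7EX, 9.48, 9.10 and 9.35 in 21EX, 9.48, 9.24 and 9.25 in MP, 9.40, 9.57 and 9.50 in LP, 9.49, 9.47 and 9.42 in 0PP, against 9.55, 9.61 and 9.53 in NP/Sed, with 7EX, 21EX, MP and 0PP below NP/Sed and a 21EX difference of -0.25 (adjusted p = 0.146).

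Rbm5, which in human cells regulates the splicing of apoptosis genes, sat just inside the threshold. Probe set 1452187_at read 6.76, 7.03 and 7.29 in 7EX, 7.26, 6.54 and 7.03 in 21EX, 7.41, 6.88 and 6.75 in MP, 7.11, 7.32 and 7.20 in LP, 7.23, 7.03 and 6.86 in 0PP, against 7.78, 7.68 and 7.42 in NP/Sed, with all 5 groups below NP/Sed and a 21EX difference of -0.68 ± 0.181 (SE, adjusted p = 0.04997). Its brightest, 1452186_at, read 9.02, 8.93 and 9.04 in 7EX, 9.08, 9.14 and 9.07 in 21EX, 8.86, 9.07 and 8.99 in MP, 9.21, 9.20 and 9.08 in LP, 9.12, 9.11 and 9.05 in 0PP, against 9.09, 9.15 and 9.10 in NP/Sed and differed by -0.01 in 21EX (adjusted p = 0.957). Rbm39, a U2AF65-like protein named after its values were seen, read 9.27, 9.10 and 9.02 in 21EX, against 9.42, 9.53 and 9.51 in NP/Sed at its brightest probe set, 1438420_at, which fell by 0.36 in 21EX (adjusted p = 0.0386). Probe set 1456386_at read 7.47, 6.76 and 7.13 in 21EX, against 8.001, 7.86 and 7.69 in NP/Sed and fell by 0.73 (adjusted p = 0.0408). The other 10 probe sets of Rbm39 did not pass.

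Fyttd1 (UIF), an mRNA export adaptor, and Psip1 (LEDGF), a chromatin reader that binds splicing factors, passed in no comparison. For Fyttd1, probe set 1431465_s_at read 5.90, 6.46 and 6.73 in 7EX, 6.27, 5.35 and 5.84 in 21EX, 6.23, 5.25 and 5.49 in MP, 6.25, 6.41 and 6.85 in LP, 6.76, 6.44 and 6.03 in 0PP, against 7.06, 6.62 and 6.32 in NP/Sed, a 21EX difference of -0.85 (adjusted p = 0.0981). Its brightest, 1424342_at, read 8.46, 8.84 and 8.91 in 7EX, 8.64, 8.04 and 8.56 in 21EX, 9.03, 8.09 and 8.24 in MP, 8.69, 9.09 and 8.98 in LP, 9.01, 8.90 and 8.58 in 0PP, against 9.27, 9.07 and 9.04 in NP/Sed, with 7EX, 21EX, MP and 0PP below NP/Sed, 21EX by 0.72 ± 0.204 (SE, adjusted p = 0.0627). Psip1 probe set 1417166_at, its brightest, read 6.58, 6.71 and 6.88 in 7EX, 6.77, 6.68 and 6.51 in 21EX, 6.45, 6.46 and 6.47 in MP, 6.74, 6.35 and 6.82 in LP, 7.01, 6.80 and 6.63 in 0PP, against 6.77, 6.61 and 6.92 in NP/Sed, a 21EX difference of -0.11 (adjusted p = 0.685).

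Of the 53 brightest probe sets, 1 per gene, 2 fell and 1 rose in 21EX, and of the 157 others 13 fell and 0 rose. For the 14 genes with a probe set that fell in 21EX, the brightest probe set had a median 21EX difference of -0.13 (range -0.56 to 0.09), beside a median of -0.81 (range -1.34 to -0.36) for the 15 that fell. The 15 were chosen by that test, so these medians are a description. By mean log2 signal, 3 of the 15 averaged under 5, 5 from 5 to 7, 5 from 7 to 9 and 2 over 9. Those ranges held 41, 51, 70 and 48 of the 210. Of all probe sets in each range, 0.789%, 2.1%, 1.99% and 1.41% fell in 21EX. By the transcript record behind each probe set, 13 of the 15 were designed on expressed sequence tags or other records, which hold 141 of the 210, and 1 on a RefSeq mRNA, which hold 26. Among all probe sets, 1.61% of those on tags or other records fell in 21EX, and 0.655% of those on a RefSeq mRNA. The part of signal level or record kind in these falls was not tested.

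**Figure D2:**
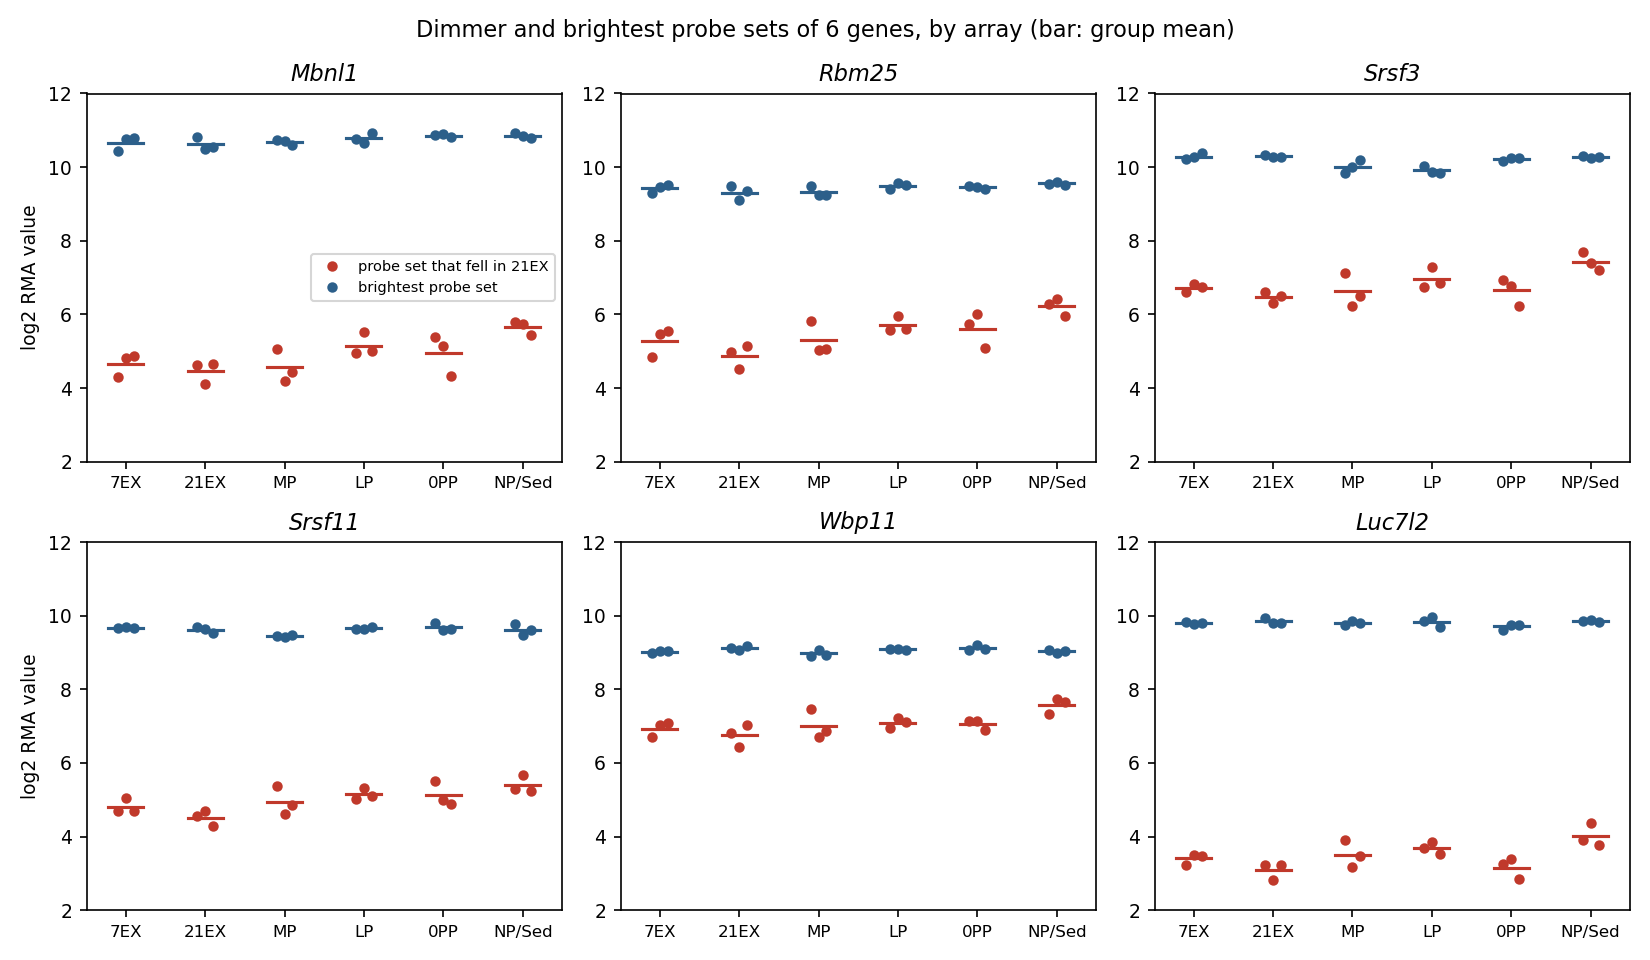
Log2 signal (y) on each of 18 arrays, by group (x), for 6 genes at the probe set that fell in 21EX and at the brightest probe set of the same gene. At Rbm25 the lower set averaged 4.88 in 21EX and 6.22 in NP/Sed.

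Whether 2 probe sets of a gene moved unequally was tested directly, on the log2 signal of the dimmest minus the brightest in each array, over the 9010 genes with 2 or more. In 21EX this difference fell at 6 of the 45 genes (13.3%, background 4.16%) and rose at 0. The largest was at Rbm25, -1.09 ± 0.196 (SE, adjusted p = 0.00702), followed by Mbnl1, -0.97 ± 0.232 (adjusted p = 0.0222), Luc7l2, -0.92 ± 0.188 (adjusted p = 0.0123), Srsf11, -0.88 ± 0.186 (adjusted p = 0.0137), and Pnn, -0.88 ± 0.247 (adjusted p = 0.0446). Ddx46, an RNA helicase of the U2 step, had -0.53 ± 0.153 (adjusted p = 0.0494), though none of its probe sets passed alone. Fyttd1 pointed the other way without passing (0.73 ± 0.215, adjusted p = 0.0532). Over all 45 genes the median difference was -0.02, and 25 were below 0, beside a median of -0.06 over all 9010 genes. The dimmest probe sets of Luc7l2, Ddx46, Mbnl1 and Srsf11 averaged only 3.48, 4.77, 4.91 and 4.99, beside array medians of 4.93 to 5.02. With a mean log2 signal of at least 5 required of each probe set, 3 genes passed in 21EX.

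The 6 genes were 3 without NP/Sed replicate 1 and 2 without NP/Sed replicate 2 or 21EX replicate 2. With every dimmer probe set compared with the brightest, a fit added after seeing the data, 9 of 157 pairs were lower in 21EX (5.73%, background 4.26%), which is near the background, and 2 pairs, both of Rbm39, were higher. In the dimmest minus brightest test the other comparisons gave 0 genes of the 45. At an unadjusted p under 0.05 there were 6 in 7EX (13.3%, beside 14.1% of all 9010 genes), 13 in MP (28.9%, beside 15%), 4 in LP (8.89%, beside 12.2%) and 10 in 0PP (22.2%, beside 17%), in either direction. At the adjusted threshold the share of all genes that were lower was 0.4% in 7EX, 0.588% in MP, 0.233% in LP and 1.58% in 0PP. The smallest adjusted p was 0.0727 in 7EX, 0.0626 in MP, 0.188 in LP and 0.0553 in 0PP. Which transcript form each probe set reads was not tested, and the probe sequences were not used here.

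**Figure D3:**
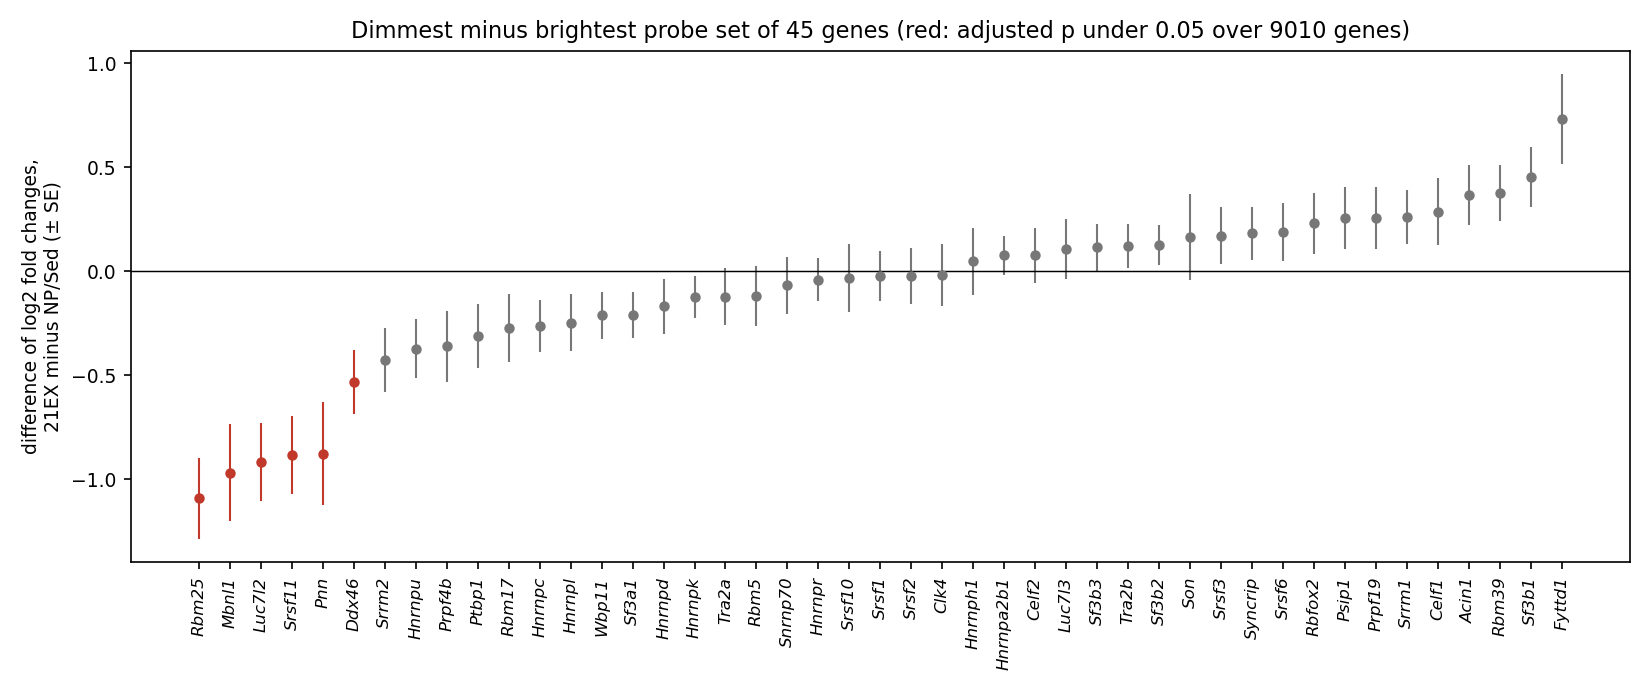
Change in 21EX of the log2 difference between the dimmest and the brightest probe set (y, with SE) for the 45 genes with 2 or more probe sets (x). The 6 genes past the test run from -1.09 at Rbm25 to -0.53 at Ddx46.

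The 15 probe sets that fell in 21EX followed single arrays closely. Within their groups, 21EX replicate 2 was the lowest array at 12 of the 15, 7EX replicate 1 at 12, and 0PP replicate 3 at 15, while MP replicate 1 was the highest at 15 and LP replicate 2 at 13. In NP/Sed, replicate 3 was the lowest at 9. The 616 probe sets that fell in 21EX over the whole array had the same arrays lowest at 75% (21EX replicate 2), 70.9% (7EX replicate 1), 69% (0PP replicate 3) and 55.5% (NP/Sed replicate 3), and highest at 85.2% (MP replicate 1) and 64.1% (LP replicate 2). The median difference of the 15 from NP/Sed was -0.61 in 7EX, -0.81 in 21EX, -0.61 in MP, -0.33 in LP and -0.51 in 0PP. The choice fixed the 21EX value, and since all 5 comparisons share the NP/Sed arrays on which the 15 were chosen, it also bears on the other 4.

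Single arrays decided how many passed. Without 21EX replicate 2, 0 of the 210 passed in 21EX, and 42 probe sets were higher and 18 lower over the whole array. The 15 then had a median difference of -0.66 (range -1.16 to -0.34) and adjusted p values of 0.0537 to 0.190. In the same comparison 5 passed without 21EX replicate 3, 6 without NP/Sed replicate 1 or 3 and 2 without NP/Sed replicate 2. Without MP replicate 1, 25 probe sets of 18 of the genes fell in MP, where 1.77% of all probe sets were then lower. The 2 calls in MP were 0 without MP replicate 2 or 3 or NP/Sed replicate 1 or 2. In LP the 2 calls were 0 without LP replicate 3 or NP/Sed replicate 2 or 3, and 6 without NP/Sed replicate 1. In 0PP they were 0 without NP/Sed replicate 2 and 6 without NP/Sed replicate 1. What sets these arrays apart was not tested.

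**Figure D4:**
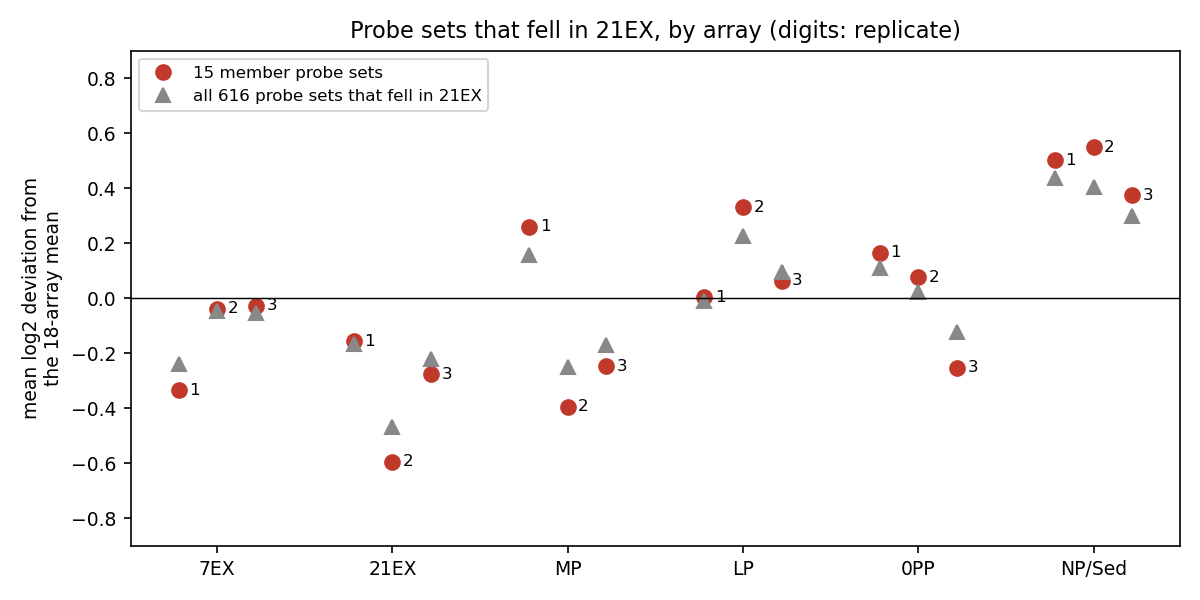
Mean deviation (y, log2) from the 18-array mean, on each array by group (x), of the 15 probe sets of these genes that fell in 21EX and of all 616 probe sets that fell. For the 15, MP replicate 1 lies at 0.26 and 21EX replicate 2 at -0.60.

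Markers of other cell types moved in some of the same comparisons. Each marker sum is the log2 of the summed signals at the brightest probe set of each gene. For 8 leukocyte markers it was 11.83 to 12.01 in 7EX, 11.84 to 12 in 21EX and 11.82 to 11.97 in MP. It was 11.6 to 11.92 in LP and 11.72 to 11.76 in 0PP, against 11.41 to 11.66 in NP/Sed. Of the 11 leukocyte probe sets, 2, 2, 4, 0 and 2 rose in those 5 groups, in that order. Erythroid markers (5 of 8 genes measured) summed to 8.87 to 9.55 in MP, against 7.71 to 7.89 in NP/Sed, with 4 of 9 probe sets up. They summed to 8.29 to 8.40 in 0PP, with 1 up, and to 7.28 to 7.65 in LP, below NP/Sed, with 0 past the test. Adipocyte markers (6 of 8 genes) summed to 13.58 to 13.78 in MP and 13.72 to 13.81 in LP, against 13.48 to 13.5 in NP/Sed, with 3 of 12 probe sets up in each, and 1 up in 0PP (13.52 to 13.55). Fibroblast markers (6 genes, 14 probe sets) had 1 up in 21EX, 2 up in MP, 1 up and 3 down in LP and 2 up in 0PP, and endothelial markers (6 genes, 10 probe sets) had 0 past the test in any of the 5. Their part in the results above was not tested.

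2 of the 3 kinases of SR proteins were higher in LP than in MP. The 3 genes had 9 probe sets, of which 0 passed against NP/Sed in any group, while 2 rose in LP against MP. The LP minus MP difference does not use the NP/Sed arrays, but its SE and p-value draw on the spread within all 6 groups. The genes were named after their values were seen. Clk1 (probe set 1426124_a_at) read 9.35, 9.47 and 9.36 in 7EX, 9.78, 9.61 and 9.52 in 21EX, 9.34, 9.39 and 9.18 in MP, 9.88, 9.85 and 9.99 in LP, 9.76, 9.49 and 9.78 in 0PP, against 9.68, 9.56 and 9.37 in NP/Sed. The 3 LP arrays lay above all MP arrays by 0.61 ± 0.0994 (SE, adjusted p = 0.00417), a 1.52-fold change. They also lay above NP/Sed, while MP and NP/Sed overlapped. Clk4 probe set 1422886_a_at read 7.09, 7.53 and 7.35 in 7EX, 7.31, 7.28 and 7.31 in 21EX, 7.04, 7.15 and 7.10 in MP, 7.64, 7.61 and 7.80 in LP, 7.65, 7.56 and 7.60 in 0PP, against 7.60, 7.30 and 7.12 in NP/Sed. LP was above MP by 0.59 ± 0.11 (adjusted p = 0.00974), and its second probe set, 1427663_a_at, showed 0.70 ± 0.197 without passing (adjusted p = 0.0909). Prpf4b, the third kinase, had 6 probe sets and none that passed.

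The other 3 probe sets higher in LP than in MP belonged to Hnrnpa2b1, which binds purine-rich RNA, and to Luc7l2. Hnrnpa2b1 1433830_at read 8.79, 8.93 and 8.89 in 7EX, 9.10, 9.06 and 9.05 in 21EX, 8.69, 8.77 and 8.75 in MP, 9.10, 9.03 and 9.17 in LP, 9.16, 8.97 and 9.04 in 0PP, against 9.10, 8.97 and 8.98 in NP/Sed, an LP minus MP difference of 0.36 ± 0.0726 (SE, adjusted p = 0.0153). Luc7l2 1427087_at read 7.49, 7.49 and 7.53 in LP, against 7.19, 6.97 and 6.91 in MP, a difference of 0.48 ± 0.11. Luc7l2 1436767_at read 9.76, 9.75 and 9.71 in LP, against 9.41, 9.50 and 9.35 in MP, a difference of 0.32 ± 0.0734, and both had an adjusted p of 0.0337. At all 5 probe sets the LP and MP arrays did not overlap, but the 5 were chosen by the test on these same arrays. All 3 LP arrays lay above all 3 MP arrays at 45 of the 210 probe sets and at 9.08% of all probe sets. The brightest Luc7l2 probe set differed by 0.04 and the brightest of Hnrnpa2b1 by -0.02, with no call. The 5 calls depended on single arrays, as only Clk1 passed without MP replicate 3 or without LP replicate 3, 2 passed without LP replicate 1 and 3 without LP replicate 2. With the actin 3' minus 5' signal as a covariate, 1 passed, also Clk1, at 0.60 (adjusted p = 0.0266). The other 4 had 0.56 at Clk4, 0.35 at Hnrnpa2b1, 0.38 at Luc7l2 1427087_at and 0.30 at Luc7l2 1436767_at (adjusted p = 0.0629, 0.0744, 0.200 and 0.150 in that order). That signal was higher in all 3 MP arrays than in all 3 LP arrays.

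Cell-type markers also moved between LP and MP. Erythroid markers summed to 7.28 to 7.65 in LP, against 8.87 to 9.55 in MP, and 4 of 9 probe sets fell, with -1.81 at Alas2, the heme synthesis enzyme of red cells. Fibroblast markers summed to 13.42 to 13.55 in LP, against 13.63 to 13.82 in MP, and 6 of 14 fell, with -1.40 at the collagen gene Col3a1. Leukocyte markers summed to 11.6 to 11.92 in LP, against 11.82 to 11.97 in MP, and 1 of 11 fell. Adipocyte and endothelial markers had 0 past the test. Their part in the 5 calls was not tested.

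**Figure D5:**
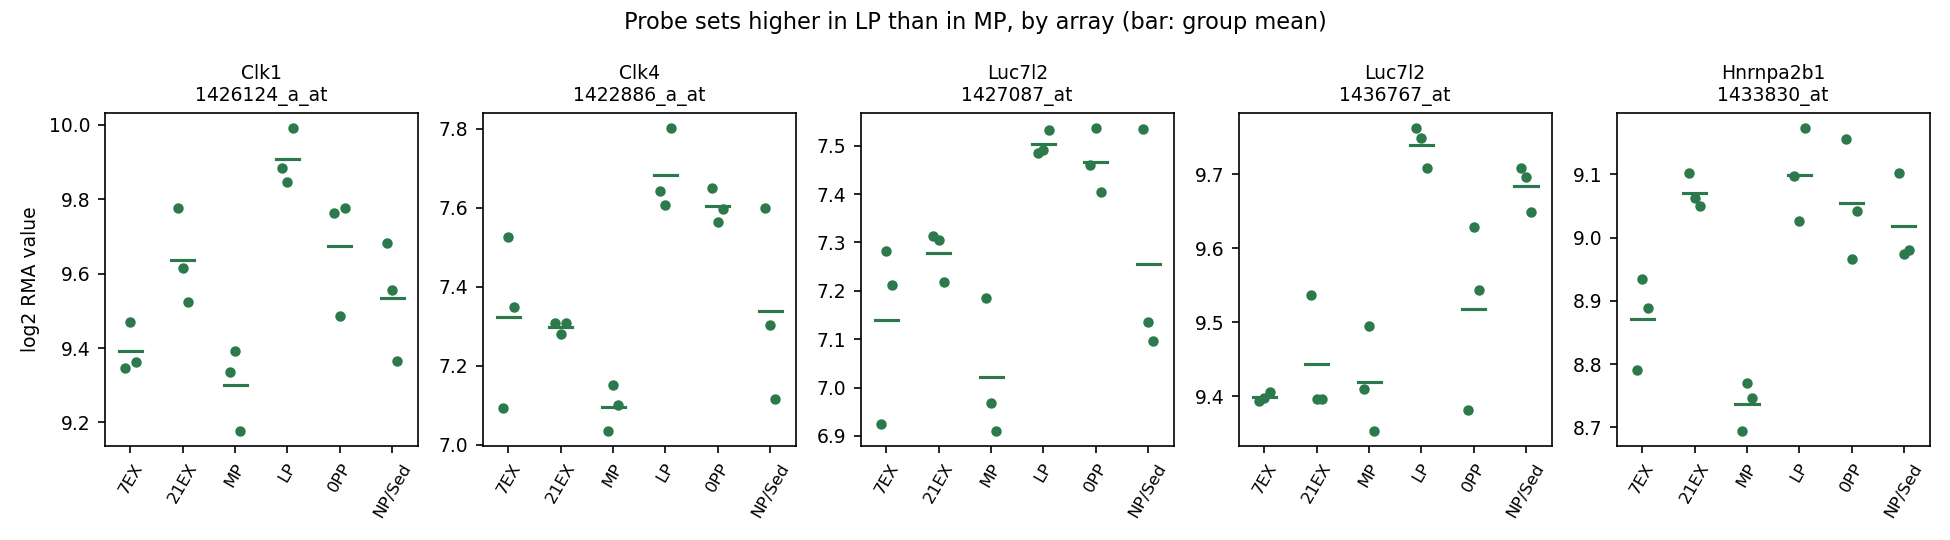
Log2 signal (y) on each of the 18 arrays by group (x) for the 5 probe sets that were higher in LP than in MP, with group means. At Clk1 the LP arrays averaged 9.91 and the MP arrays 9.30.

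The promoters of 3 of the 4 genes that rose in LP against MP are shown because the genes were called in the same comparison. Clk1, the fourth, had no entry in the table used. The 250 bases before the first RefSeq start were read from GRCm38.p6, and 49 of the 53 genes had an entry. Clk4 lies at chr11:51262864-51263113 (plus strand), Hnrnpa2b1 at chr6:51469895-51470144 (minus strand, printed 5' to 3' along the gene) and Luc7l2 at chr6:38555473-38555722 (plus strand). Capitals mark motifs found on either strand.
Clk4: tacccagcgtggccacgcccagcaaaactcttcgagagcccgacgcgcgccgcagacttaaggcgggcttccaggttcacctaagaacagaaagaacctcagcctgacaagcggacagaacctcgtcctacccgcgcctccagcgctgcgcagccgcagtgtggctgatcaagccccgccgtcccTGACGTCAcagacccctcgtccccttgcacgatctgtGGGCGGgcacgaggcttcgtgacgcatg
Hnrnpa2b1: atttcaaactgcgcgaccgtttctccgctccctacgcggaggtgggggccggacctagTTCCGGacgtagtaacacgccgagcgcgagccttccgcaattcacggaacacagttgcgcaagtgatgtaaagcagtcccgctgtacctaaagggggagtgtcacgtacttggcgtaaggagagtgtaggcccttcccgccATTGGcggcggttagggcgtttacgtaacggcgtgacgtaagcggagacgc
Luc7l2: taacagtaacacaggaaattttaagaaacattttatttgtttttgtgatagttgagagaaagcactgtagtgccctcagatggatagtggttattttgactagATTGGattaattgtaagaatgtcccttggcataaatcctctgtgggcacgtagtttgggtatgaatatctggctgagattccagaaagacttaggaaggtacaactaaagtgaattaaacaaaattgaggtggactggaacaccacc

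In these windows Clk4 held 1 cyclic AMP response element (TGACGTCA) and 1 GC box (GGGCGG), Hnrnpa2b1 1 CCAAT box and 1 ETS site (CCGGAA), and Luc7l2 1 CCAAT box. None of the 6 motifs searched was in all 3. Over the 49 promoters, the response element was found in 2, beside 1.62% of all 27025 promoters, the GC box in 26 (32.9% of all), CCAAT in 26 (34.5%), the ETS site in 17 (12.2%), the E-box CACGTG in 3 (6.05%) and the heat shock motif GAANNTTC in 3 (6.78%). A match describes these letters only.

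Beyond the 53 genes, 114 of 127 other listed RNA-processing genes were measured by 327 probe sets. In 21EX 19 of the 327 probe sets, from 12 genes, fell and 1 rose, with a median difference of 0.00 over the 327. The background there was 1.37% lower and 1.38% higher, and 15 of the 210 probe sets of the 53 genes fell. Falls in 21EX were thus not particular to the 53 genes. The backgrounds of the other comparisons are those given above. Bclaf1, a nuclear protein of the SR-like family, had the smallest adjusted p, -0.85 ± 0.135 at 1428845_at (adjusted p = 0.0119), and this was its brightest probe set. In 7EX 2 fell, both of Bclaf1 (-0.86 at the same probe set, adjusted p = 0.00721). In MP 8 fell, led by Cirbp, a cold-inducible RNA-binding protein, with -0.44 (adjusted p = 0.0132), and in 0PP 4 fell, also led by Cirbp, with -0.49 (adjusted p = 0.00657). In LP 3 rose and 3 fell (Ewsr1, an RNA-binding protein of the FET family, -0.41, adjusted p = 0.00887). Cirbp was higher in LP than in MP by 0.42 (adjusted p = 0.0100), with 4 probe sets up in all, and lower in 0PP than in LP by 0.48 (adjusted p = 0.00545), the only call there, and 0 passed in 21EX against 7EX.

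Transcripts that such factors splice in heart were measured for 15 of 16 listed genes, by 63 probe sets. In 21EX 12 of the 63 probe sets, from 6 genes, fell and 0 rose (background 1.37% lower and 1.38% higher). Tnnt2, cardiac troponin T, had the smallest adjusted p at 1440424_at, ranked 3 by signal among its probe sets, with -0.86 ± 0.159 in 21EX (adjusted p = 0.0156) and -0.74 in 7EX (adjusted p = 0.0381), the only call there. In MP 4 fell, led by Mef2a, a muscle transcription factor, with -0.35 (adjusted p = 0.0294). In LP 1 fell, of Clasp1, a microtubule protein (-0.38, adjusted p = 0.00741), which was also lower in LP than in MP (-0.33, adjusted p = 0.0183). In 0PP 5 fell and 1 rose, led by Pdlim5, a Z-disc protein, with 0.52 (adjusted p = 0.0172). Of the 15 brightest probe sets of these genes, 1 fell in 21EX, 1 in LP, 1 in 0PP and 0 in 7EX or MP. 0 passed in 21EX against 7EX or in 0PP against LP. The arrays do not give exon use, so splicing itself was not measured.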

How the data were processed

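Left ventricle RNA of 18 pools was measured on Affymetrix Mouse Genome 430 2.0 arrays. The authors processed the arrays together with RMA at default options and deposited log2 values, which were used as deposited. RMA subtracts background, quantile-normalizes the arrays and summarises each probe set over the arrays, so differences at dim probe sets are compressed. Of 45101 rows, 64 controls were left out. Gene names come from the platform annotation, which can be old. 34945 probe sets have 1 gene, 932 several and 9160 none, and a RefSeq table changed no symbol of the 53 genes.

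6 group means were fitted to all 18 arrays with limma 3.58.1 (R 4.3.3; 12 residual and 6.45 prior degrees of freedom), with two-sided tests and Benjamini-Hochberg adjustment over 45037 probe sets. For unequal change, log2 of the dimmest minus the brightest probe set was fitted over 9010 genes. The number of arrays limits precision.

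Values on all arrays are given for the 10 genes that the study names, at the probe set with the smallest F-test p and the brightest, and for the 2 other genes with the smallest adjusted p in each direction of each comparison with NP/Sed. Other genes are named where a count is small and were chosen after their values were seen. The genes and lists were chosen with earlier results of these data known. Alternatives were the study's fold limit, its Cyber-T test re-implemented, an intensity trend, other scalings, a minimum signal, 1 value per gene, an actin covariate, a replicate block, only the groups compared, another dim value and each array left out. The comparison of every dimmer probe set with the brightest was added after seeing the data.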

Additional observations from a re-analysis of the deposited data

Results flagged for a closer look

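5 probe sets of 4 genes were set aside because their change from NP/Sed differed between late and mid-pregnancy, by a direct test of LP against MP. Clk1 1426124_a_at was higher in LP than in MP by 0.61 on the log2 scale, with 0.37 above NP/Sed in LP and -0.23 in MP. Clk4 1422886_a_at was higher by 0.59 (0.34 in LP and -0.24 in MP relative to NP/Sed). Luc7l2 1427087_at was higher by 0.48 (0.25 in LP and -0.23 in MP), and Luc7l2 1436767_at by 0.32 (0.06 in LP and -0.27 in MP). Hnrnpa2b1 1433830_at was higher by 0.36 (0.08 in LP and -0.28 in MP). The adjusted p values by limma were 0.00417, 0.00974, 0.0337, 0.0337 and 0.0153 in that order. All 3 LP arrays lay above all 3 MP arrays at each of the 5, which were chosen by that test on the same arrays. The same held at 9.08% of all probe sets.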

How the results depend on the processing

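No named change reversed its sign in any alternative, and the counts of probe sets past the test moved as follows. With a change of at least 75% required, 8 passed in 21EX, 1 in MP, 0 in LP, 1 in 0PP and 0 in LP against MP. With only the groups compared in the fit there were 5 in 7EX, 10 in 21EX, 1 in MP, 0 in LP and 2 in LP against MP, and 2 genes with unequal probe sets in 7EX. The re-implemented Cyber-T test passed 25 in 7EX, 33 in 21EX, 28 in MP, 13 in 0PP, 13 in LP against MP and 1 in 0PP against LP. An intensity trend gave 3 in 7EX, 25 in 21EX, 12 in MP and 5 in 0PP. A mean log2 signal of at least 5 gave 2 in 7EX, 23 in 21EX, 8 in MP, 7 in 0PP and 8 in LP against MP. It gave 3 genes with unequal probe sets in 21EX, since dim partners were left out. Repeated quantile normalization gave 1 in 7EX, 24 in 21EX, 6 in MP, 1 in LP and 4 in 0PP, and 1 gene with unequal probe sets in MP. Median centring gave 5 in 0PP. These scalings moved the median of all probe sets by at most 0.01 and 0.05. Keeping the brightest probe set of each gene gave 3 in 21EX, 0 in MP, 2 in LP, 2 in 0PP and 2 in LP against MP, over fewer features. In the main fit 1 of the brightest probe sets passed in LP and 0 in 0PP, so the calls there were not the same probe sets. The mean of each gene's probe sets gave 1 in 7EX, 4 in 21EX, 1 in 0PP and 2 in LP against MP, also over fewer features. The actin covariate gave 0 in MP, 0 in LP and 1 in LP against MP. With the mean of all dimmer probe sets 2 genes had unequal probe sets in 21EX, and with every dimmer probe set, an alternative chosen after seeing the data, 10 did in 21EX (9 with a lower dim probe set, and Rbm39 the other way) and 1 in 0PP. The causes of these changes were not tested.

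The replicate numbers did not pair the arrays. Same-numbered arrays correlated over 0.1 in 7 of 45 pairs (-0.27 to 0.18), and 6 of 18 arrays correlated best with their own number. With the replicate block, 0 passed in MP and 1 in LP, and no other count moved by over 1.5 times. Leaving out each array in turn gave 0 to 3 in 7EX, 0 to 22 in 21EX, 0 to 25 in MP, 0 to 6 in LP, 0 to 6 in 0PP, 1 to 8 in LP against MP, and 0 in 21EX against 7EX and in 0PP against LP. Genes with unequal probe sets numbered 0 to 1 in 7EX, 2 to 7 in 21EX, 0 to 5 in MP, 0 in LP and 0 to 1 in 0PP.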
